A study of Mus musculus with 35 samples.

Results

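Transcripts of 10 genes of the p53 and BCL2 pathway of apoptosis were followed through mouse epiblast development and in the stem cell cultures that model it. The genes were Trp53, its inhibitor Mdm2, the BH3-only genes Bbc3 (PUMA), Pmaip1 (NOXA) and Bcl2l11 (BIM), the effectors Bax and Bak1, and the pro-survival genes Bcl2, Bcl2l1 (BCL-XL) and Mcl1. They were taken by name, for their place in this pathway, from the 54446 genes of the deposited expression table, and all 10 were found. The study set 3D cultures of epiblast stem cells (EpiSCs) beside 2D cultures and beside the epiblast of the embryo, and 27 bulk RNA-seq libraries, 3 in each of 9 groups, were used. ESC-derived 3D EpiSCs were made from embryonic stem cells (ESCs) and embryo-derived 3D EpiSCs from the epiblast of E5.5 embryos, and both grew as spheroids in 3D Matrigel with FGF2, ActivinA, the Wnt pathway inhibitor XAV and the BMP antagonist Noggin. 2D EpiSCs were obtained from ESCs through FGF2-ActivinA treatment, and EpiLCs, epiblast-like cells, were ESCs kept in FGF2-ActivinA for 48 h. The in vivo groups were the inner cell mass (ICM) at E3.5 and the epiblast at daily steps from E4.5 to E7.5, of untreated embryos, several pooled per library. The labels give every group as wild-type and the embryos as CD-1 of either sex, while per the study's methods they came from matings of CD1 or Pdgfra:H2B-GFP mice, their sex was not determined, and embryo-derived EpiSC lines were made from CD1 and LifeAct-GFP embryos. At E4.5 the epiblast cells were picked by hand as negative for a Pdgfra:H2B-GFP reporter of the primitive endoderm. The labels do not say whether the libraries of a group came from separate cultures or litters, so p-values measure the spread between these libraries, which may be technical.

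In the mitochondrial pathway of apoptosis, BAX and BAK open the outer membrane of the mitochondrion, pro-survival proteins such as MCL1 and BCL-XL hold them and their activators back, and BH3-only proteins release that hold. p53 is a transcription factor that the ubiquitin ligase MDM2 keeps low, and Mdm2, Bbc3, Pmaip1 and Bax are among its known targets. The early epiblast is known for a low threshold to apoptosis, both after DNA damage and when less fit cells are removed by competition. Only RNA was measured here, and neither protein levels nor cell death were.

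All 10 genes are protein-coding. In the mm10 build Trp53 spans chr11:69580359-69591873, Mdm2 chr10:117688875-117710758, Bbc3 chr7:16308393-16318205 and Bcl2l11 chr2:128126038-128162547. Bax spans chr7:45461697-45466898, Bak1 chr17:27019810-27029009, Bcl2 chr1:106538178-106714274, Bcl2l1 chr2:152780668-152831728 and Mcl1 chr3:95658788-95663176. Promoter windows from RefSeq (GRCm38.p6, 250 bases before to 50 after a transcript start) were matched for 9 of the genes, all but Pmaip1, in 14 windows. They were searched on both strands for the p53 half-site consensus, 10 bases long, because p53 binding sites are built from pairs of it. It was present in 3 of the 14 windows, against 2745 of 32851 windows over all genes (8.36%). A pair of half-sites with at most 13 bases between them was present in 0 of the 14 windows and in 24 of all windows (0.073%). The matches are printed 5′ to 3′ on the strand of the gene, with the half-site in capitals and 5 flanking bases on each side.
Trp53, chr11:69580279-69580298, plus strand, 75 bases before the start: cggaaGGACTTGCCCttact
Mdm2, chr10:117710930-117710949, minus strand, 186 bases before the start: gatagGAACTTGCCTagcga
Bax, chr7:45467085-45467104, minus strand, 201 bases before the start: atcccAGGCAAGCTTtgaac
A match in letters is a description of the sequence and not a binding site, and these RNA data hold no measure of p53 binding.

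Levels are in TPM, a transcript's share of its library corrected for its length, so they can be compared between genes. They add up to one fixed total per library, and the depth of each library is unknown. Culture RNA was captured by its poly-A tail, whereas embryo libraries were made from total RNA with ribosomal depletion, so that culture and kit cannot be told apart and levels across them are only set side by side. Among the embryos, E3.5 and E4.5 RNA was fragmented at a lower temperature than E5.5 to E7.5 RNA and the tissue was isolated in other ways. The step from E4.5 to E5.5, and with it E3.5 against E7.5, thus also carries a change of protocol that cannot be told apart from stage. In 3 of the 4 culture groups 1 pair of libraries lay much closer together than the other pairs. Replicates 1 and 2 of ESC-derived 3D EpiSCs differed by a median of 0.061 on the log2(TPM + 1) scale, against 0.271 and 0.269 for their differences from replicate 3, which stood apart. The closest pairs among embryo-derived 3D EpiSCs and 2D EpiSCs differed by 0.0569 and 0.0649, against 0.103 to 0.222 among embryo libraries of a stage. Whether such pairs share a culture is not given in the sources used here.

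Markers of the labelled tissue were present in every group, since all 5 epiblast and pluripotency markers (Pou5f1, Sox2, Nanog, Utf1, Dnmt3b) had a mean above 2 TPM in each. Markers of other tissues were present as well in the embryos. The 6 trophectoderm and extra-embryonic ectoderm markers summed to 3111 to 3173 TPM at E3.5 and 2720 to 2894 at E4.5, with all 6 above 2 TPM, and to 328 to 362 at E5.5, 396 to 441 at E6.5 and 801 to 840 at E7.5. At E4.5, after removal of the trophectoderm, Krt18 was at 1666 TPM, Elf5 at 127 and Cdx2 at 23.7. The 8 primitive and visceral endoderm markers summed to 442 to 454 TPM at E3.5, 48.6 to 60.3 at E4.5, 566 to 610 at E5.5, 913 to 953 at E6.5 and 987 to 1013 at E7.5, where Apoa1 was at 469.6 and Ttr at 266 TPM. In culture the endoderm sum was at most 63.3 TPM, in 2D EpiSCs. The trophectoderm sum was 564 to 724 TPM in 2D EpiSCs, 242 to 361 in ESC-derived and 186 to 209 in embryo-derived 3D EpiSCs and 42.6 to 63.0 in EpiLCs, with Krt18 at 336 TPM and Cdx2 at 0.0213 TPM in 2D EpiSCs. The 5 naive markers summed to 622 to 638 TPM at E3.5 and 14.1 to 14.5 at E7.5, the 3 post-implantation epiblast markers to 2.45 to 4.11 at E3.5 and 305 to 325 at E5.5, and the 6 primitive streak and mesoderm markers to 141 to 186 at E6.5 and 223 to 231 at E7.5. The 3 fibroblast markers summed to at most 22.7 TPM and the 3 embryonic globin genes were listed at 0 in all libraries. The part of other tissues in the results below was not tested, and in bulk samples fewer cells of a type and less RNA per cell cannot be told apart.

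Pmaip1 had the widest range among the 10 genes on the log2(TPM + 1) scale, from 0 to 0.118 TPM in embryo-derived 3D EpiSCs to 70.1 to 102 TPM in EpiLCs, while Trp53 itself stayed between 60.4 and 395 TPM. In the embryo Trp53, Bak1 and Bcl2l11 rose and Bbc3 and Pmaip1 fell between E3.5 and E7.5, under each scaling tried. Scaling does not remove the change of protocol between these stages. In culture 2D EpiSCs carried more Bcl2l11, Bcl2 and Bcl2l1 than 3D EpiSCs of either origin, again under each scaling. Bcl2 was tested in culture only because it was above 2 TPM in the 2D EpiSC libraries. Mdm2 and Mcl1 were also higher in 2D EpiSCs, calls that were in part lost when libraries were rescaled. The plot of TPM by library shows these levels.

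**Figure D1:**
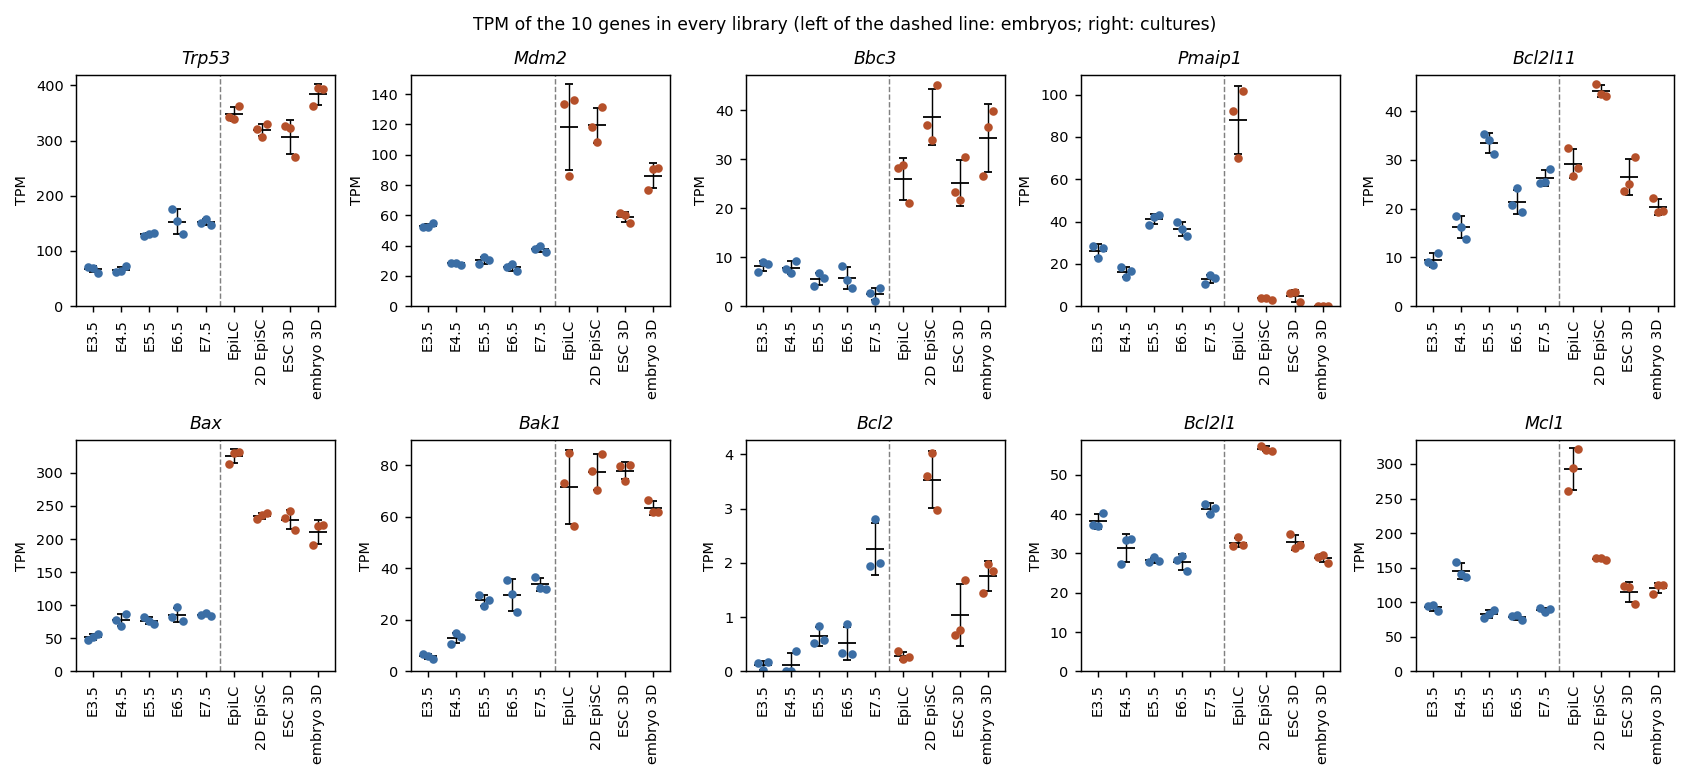
TPM of each of the 10 genes (vertical axes, linear, starting at 0) in the 27 libraries, with 5 embryo groups in blue and 4 culture groups in orange. Points are libraries, and bars give the mean and SD of 3 libraries. Pmaip1 is at 70.1 TPM or more in every EpiLC library and at 6.52 TPM or less in every EpiSC library.

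Differences were tested with limma on log2(TPM + 1), where a difference of 1 is a 2-fold change of TPM + 1, and a gene passed at an adjusted p below 0.05 over all genes tested (11541 in culture, 11880 in the embryo). All 10 genes were tested in culture and 9 in the embryo, where Bcl2 stayed below the filter on low values. In culture Bcl2 passed this filter only through the 2D EpiSC libraries, the group where it was highest. From E3.5 to E4.5, 4 of the 9 genes rose (Bcl2l11, Bax, Bak1, Mcl1) and 3 fell (Mdm2, Pmaip1, Bcl2l1), against 21% and 33.8% of all genes. From E4.5 to E5.5, 4 rose (Trp53, Pmaip1, Bcl2l11, Bak1) and Mcl1 fell, against 38.9% and 22.8% of all genes. At this step the summed trophectoderm markers were lower and the endoderm markers higher at E5.5, as given above, and the part of either in these calls was not tested. From E5.5 to E6.5 Bcl2l11 fell, where 6.95% of all genes fell and 3.89% rose. From E6.5 to E7.5 Mdm2 and Bcl2l1 rose and Bbc3 and Pmaip1 fell, against 46.5% and 6.87% of all genes. Between the first and last stages 4 genes rose (Trp53, Bcl2l11, Bax, Bak1) and 3 fell (Mdm2, Bbc3, Pmaip1), against 49.1% and 25% of all genes. Between 53.4% and 74.1% of all genes passed in these comparisons in either direction, other than from E5.5 to E6.5 (10.8%), so a call was common. The libraries of the compared groups failed to overlap for 31.3% to 81.7% of all genes in the embryo comparisons and for 39.2% to 67.5% in the culture comparisons.

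The split between higher and lower genes depended on the scaling of the libraries. When TPM were rescaled by median-of-ratios factors, the median change of all genes moved from 0.16 to 0.03 for E5.5 against E4.5, from 0.31 to 0.01 for E7.5 against E6.5 and from 0.30 to 0.03 for E7.5 against E3.5. The shares of all genes that rose and fell then became 31.8% and 29.1%, 21.2% and 18.9%, and 37.3% and 34.4%. From E5.5 to E6.5 they became 6.04% and 4.47%. Of the 9 genes, 1 then rose (Mdm2) and 4 fell (Trp53, Bbc3, Pmaip1, Bax) from E6.5 to E7.5, and from E4.5 to E5.5 Bcl2l1 joined Mcl1 among the 2 that fell. Between E3.5 and E7.5 the same 4 genes rose and 4 fell, Mcl1 being added.

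In culture, 6 of the 10 genes were lower in ESC-derived 3D EpiSCs than in 2D EpiSCs (Mdm2, Bbc3, Bcl2l11, Bcl2, Bcl2l1, Mcl1), against 35.9% of all genes, while 9.56% were higher. In embryo-derived 3D EpiSCs 6 were lower (Mdm2, Pmaip1, Bcl2l11, Bcl2, Bcl2l1, Mcl1) and Trp53 was higher, against 22.9% and 9.83% of all genes. Against EpiLCs, ESC-derived 3D EpiSCs had 4 lower genes (Mdm2, Pmaip1, Bax, Mcl1) and Bcl2 higher, against 22.8% and 22.6% of all genes. Embryo-derived 3D EpiSCs had 5 lower genes (Mdm2, Pmaip1, Bcl2l11, Bax, Mcl1) and Bcl2 higher, against 22.3% and 33.7%. 2D EpiSCs had 4 higher genes (Bbc3, Bcl2l11, Bcl2, Bcl2l1) and 3 lower (Pmaip1, Bax, Mcl1), against 39.9% and 18.7%. Between the 3D cultures, Pmaip1 and Bcl2l11 were higher and Trp53 and Mdm2 lower in the ESC-derived ones, against 6.55% and 14.6% of all genes. These comparisons share groups and so are not independent of each other. The summed trophectoderm and endoderm markers were higher in 2D EpiSCs than in 3D EpiSCs and EpiLCs, and their part in these calls was not tested.

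Rescaling moved the split in culture too. For ESC-derived 3D against 2D EpiSCs the median of all genes moved from -0.21 to -0.01, the shares higher and lower became 21.7% and 23.1%, and 4 of the 10 genes stayed lower (Mdm2, Bcl2l11, Bcl2, Bcl2l1). For embryo-derived 3D against 2D EpiSCs the shares became 14.9% and 19.2%, with Trp53 still higher and 4 genes lower (Pmaip1, Bcl2l11, Bcl2, Bcl2l1). For embryo-derived 3D EpiSCs against EpiLCs the median moved from 0.10 to -0.02 and the shares to 27.6% and 28.4%, and 6 genes were lower, Bcl2l1 being added (-0.31, adjusted p = 0.0145). For 2D EpiSCs against EpiLCs it moved from 0.18 to -0.03 and the shares to 29.5% and 30.4%, with 3 genes higher (Bcl2l11, Bcl2, Bcl2l1) and 4 lower, Trp53 being added (-0.35, adjusted p = 0.0205). For the 3D cultures against each other it moved from -0.12 to 0.00 and the shares to 9.54% and 8.17%, and 3 genes were then higher (Pmaip1, Bcl2l11, Bcl2l1), with the calls of Trp53 and Mdm2 lost.

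**Figure D2:**
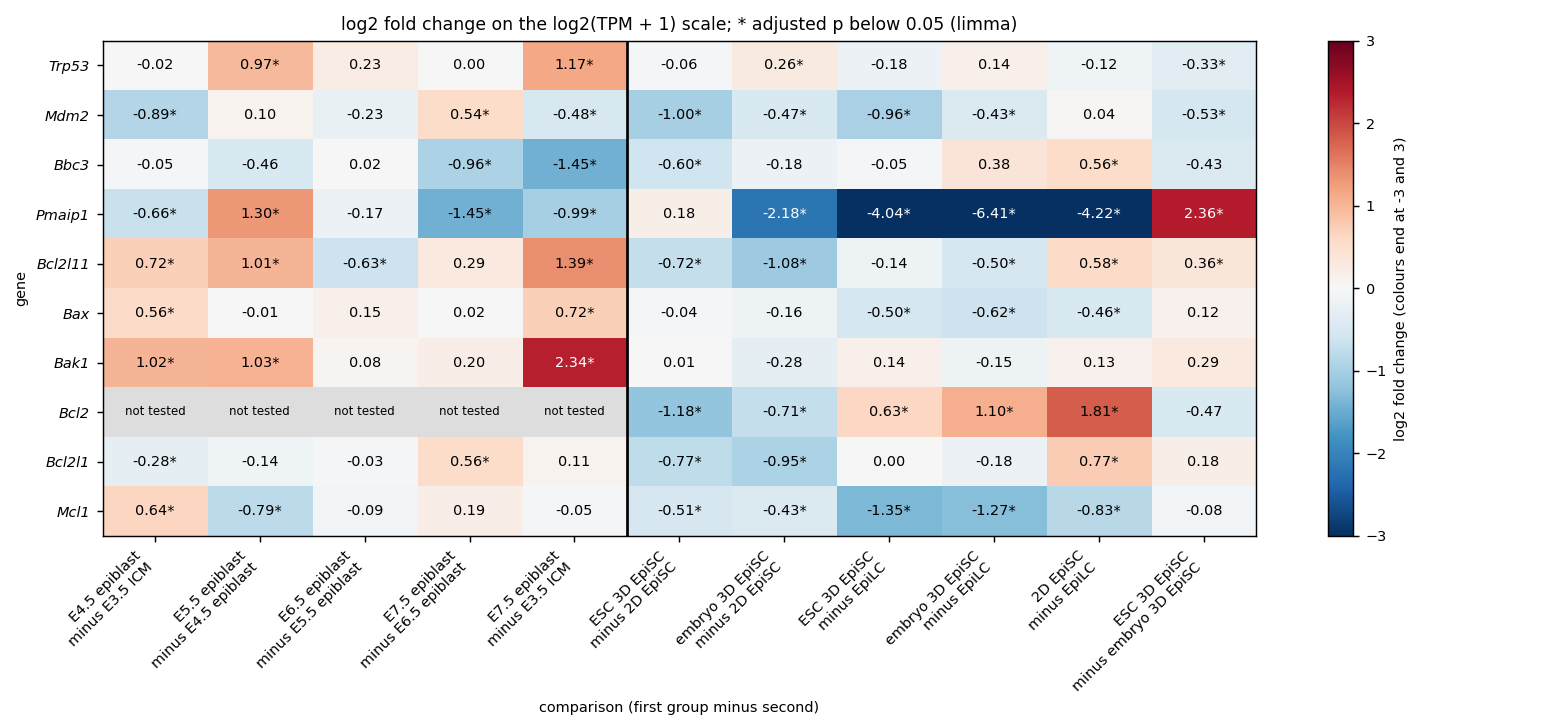
Difference in log2(TPM + 1) for each gene (rows) in each comparison (columns, first group minus second), red where higher and blue where lower in the first group, with an asterisk where the adjusted p from limma was below 0.05. The vertical line separates embryo from culture comparisons. The largest differences are those of Pmaip1 against EpiLCs, between -4.04 and -6.41, and Bcl2 was not tested in the embryo.

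Trp53, which encodes p53, was at 71.7, 69.5 and 60.4 TPM in the 3 E3.5 libraries and at 62.1, 64.3 and 72 TPM at E4.5. It was at 126, 130.2 and 133 TPM at E5.5, at 176, 154 and 130.3 TPM at E6.5 and at 152, 158 and 147 TPM at E7.5. The libraries of the first 2 stages overlapped and lay below all later ones, and among the later stages E6.5 overlapped both E5.5 and E7.5. The rise from E4.5 to E5.5 was 0.97 ± 0.11 (SE, adjusted p = 3.75e-06) and that from E3.5 to E7.5 was 1.17 ± 0.11 (adjusted p = 2.99e-07). From E6.5 to E7.5 the difference was 0.00, but -0.33 with an adjusted p of 0.0215 after rescaling. In culture Trp53 was at 326, 324 and 271 TPM in ESC-derived 3D EpiSCs, at 362, 395 and 394 TPM in embryo-derived 3D EpiSCs, at 321, 307 and 330.0 TPM in 2D EpiSCs and at 342, 338 and 362 TPM in EpiLCs. Embryo-derived 3D EpiSCs had the highest mean, and their replicate 1 and EpiLC replicate 3 lay side by side at 362 TPM.

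The difference of embryo-derived 3D EpiSCs from 2D EpiSCs in Trp53, 0.26 ± 0.09 (adjusted p = 0.0496), lay at the edge of the test. It was lost, with adjusted p from 0.0731 to 0.159, when embryo-derived replicate 2 or 3 or any 2D EpiSC library was left out. ESC-derived 3D EpiSCs were lower than embryo-derived ones by -0.33 ± 0.09 (adjusted p = 0.0325), a call lost without ESC-derived replicate 1 or 2 or embryo-derived replicate 2 or 3 (adjusted p from 0.056 to 0.113).

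Mdm2, the ubiquitin ligase for p53 and a p53 target, was highest at the first stage, with 52.3, 52.4 and 54.7 TPM at E3.5. It was at 28.8, 28.5 and 27.5 TPM at E4.5, 28.0, 32.2 and 30.8 TPM at E5.5, 25.7, 27.8 and 23.5 TPM at E6.5 and 38.1, 39.6 and 35.6 TPM at E7.5. The E3.5 libraries lay above all others and the E7.5 libraries above the 3 stages between. Mdm2 fell by 0.89 ± 0.08 from E3.5 to E4.5 (adjusted p = 9.31e-07) and rose by 0.54 ± 0.08 from E6.5 to E7.5 (adjusted p = 1.33e-04), a rise of 0.21 (adjusted p = 0.0324) after rescaling. From E5.5 to E6.5 the difference was -0.23 (adjusted p = 0.0922).

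In culture Mdm2 was at 61.7, 60.4 and 55.2 TPM in ESC-derived 3D EpiSCs, at 76.9, 90.7 and 91.1 TPM in embryo-derived 3D EpiSCs, at 118, 109 and 131 TPM in 2D EpiSCs and at 134, 85.8 and 136 TPM in EpiLCs. ESC-derived 3D EpiSCs formed the lowest group and overlapped no other. They were lower than 2D EpiSCs by -1.0 ± 0.16 (adjusted p = 7.07e-04) and lower than EpiLCs by -0.96 ± 0.16 (adjusted p = 5.86e-04). EpiLC replicate 2, at 85.8 TPM, fell among the embryo-derived 3D EpiSCs.

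The other Mdm2 calls in culture were each lost when single libraries were left out. Embryo-derived 3D EpiSCs were lower than 2D EpiSCs by -0.47 ± 0.16 (adjusted p = 0.0459), and this was lost whichever 1 of the 6 libraries was left out (adjusted p from 0.066 to 0.141). They were lower than EpiLCs by -0.43 ± 0.16 (adjusted p = 0.0415), and this was lost without any one of the embryo-derived libraries, or without EpiLC replicate 1 or 3 (adjusted p from 0.0621 to 0.151). ESC-derived 3D EpiSCs were lower than embryo-derived ones by -0.53 ± 0.16 (adjusted p = 0.0389), which was lost without any one of the ESC-derived libraries or without embryo-derived replicate 2 or 3 (adjusted p from 0.0543 to 0.123).

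The ratio of Mdm2 to Trp53 TPM within a library does not depend on how the library is scaled. It was 0.796 ± 0.095 (SD, n = 3) at E3.5, 0.429 ± 0.043 at E4.5, 0.233 ± 0.013 at E5.5, 0.169 ± 0.020 at E6.5 and 0.248 ± 0.0051 at E7.5. The ranges of E3.5 (0.729 to 0.905), E4.5 (0.381 to 0.464) and E5.5 (0.221 to 0.247) did not overlap. In culture it was 0.193 ± 0.0092 in ESC-derived and 0.224 ± 0.011 in embryo-derived 3D EpiSCs, 0.374 ± 0.022 in 2D EpiSCs and 0.34 ± 0.075 in EpiLCs. The 3D EpiSCs of both origins (0.187 to 0.231) lay below every EpiLC and 2D EpiSC library (0.254 to 0.398).

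Among 17 other regulators of p53, 16 were tested in culture and 15 in the embryo. From E6.5 to E7.5, 9 rose, with a median of 0.35 against 0.31 over all genes, of which 46.5% rose, so that the count was near the background, and 5 rose and 2 fell after rescaling. Among the 9 were Mdm4, an inhibitor of p53 related to Mdm2 (24.4 to 54.0 TPM, 1.14 ± 0.15, adjusted p = 2.8e-05), and Trp53bp1, a DNA damage response factor (34.1 to 74.3 TPM, 1.10 ± 0.14, adjusted p = 1.98e-05). Counts were 1 up and 5 down from E3.5 to E4.5, 6 up and 2 down from E4.5 to E5.5, 2 down from E5.5 to E6.5, both lost after rescaling, and 9 up and 3 down from E3.5 to E7.5. After rescaling the first of these counts became 3 up and 3 down and the last 7 up and 5 down. Over all genes 21% rose and 33.8% fell at the first of these steps, 38.9% and 22.8% at the next, 3.89% and 6.95% from E5.5 to E6.5, and 49.1% and 25% from E3.5 to E7.5. Hipk2, a kinase that acts on p53, fell from 24.6 to 11 TPM between E3.5 and E4.5 and rose to 34.4 TPM at E5.5.

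In culture the largest difference among the regulators was that of Cdkn2a, whose ARF product binds MDM2. It was at 25.6 ± 9.2 TPM in EpiLCs, 9.44 ± 4.3 in 2D EpiSCs, 2.21 ± 0.48 in ESC-derived and 0.718 ± 0.13 in embryo-derived 3D EpiSCs. It was lower in embryo-derived 3D EpiSCs than in EpiLCs by -3.89 ± 0.32 (adjusted p = 1.4e-06) and than in 2D EpiSCs by -2.50 ± 0.32 (adjusted p = 1.55e-04). Of the 16 regulators, ESC-derived 3D EpiSCs had 1 higher and 6 lower than 2D EpiSCs, near the 9.56% and 35.9% of all genes. Mdm4 was among the lower (23.1 against 60.7 TPM, -1.40 ± 0.23, adjusted p = 7.13e-04). Counts were 1 higher and 3 lower for embryo-derived 3D against 2D EpiSCs, against 9.83% and 22.9% of all genes. For 2D EpiSCs against EpiLCs they were 2 higher and 5 lower, against 39.9% and 18.7%. Against EpiLCs 8 regulators were lower in ESC-derived and 3 in embryo-derived 3D EpiSCs, against 22.8% and 22.3% of all genes. Mdm4 was the regulator that was lower in the ESC-derived than in the embryo-derived 3D EpiSCs (-0.87 ± 0.23, adjusted p = 0.023), where 14.6% of all genes were lower. After rescaling ESC-derived 3D EpiSCs had 3 higher and 6 lower than 2D EpiSCs, with 2 higher and 8 lower for 2D EpiSCs against EpiLCs, and 7 and 5 lower for ESC-derived and embryo-derived 3D EpiSCs against EpiLCs.

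Other known p53 targets, 25 listed, were read beside Trp53 and Mdm2. From E3.5 to E4.5, 14 of the 21 tested fell, with a median of -0.71 against -0.10 over all genes, and 14 fell and 1 rose after rescaling. Of all genes, 33.8% fell and 21% rose before rescaling. At this step 6 of the 8 primitive and visceral endoderm markers fell too, with a median of -2.38. Of the 6 trophectoderm and extra-embryonic ectoderm markers 3 fell and 2 rose, Cdx2 from 161 to 23.7 TPM and Elf5 from 49.7 to 127 TPM. Per the study's methods the isolation also changed, from laser dissection at E3.5 to immunosurgery, an antibody-based removal of trophectoderm, at E4.5. The part of these changes in this result was not tested. Cdkn1a, the cell cycle inhibitor p21, fell from 19.8 ± 3.5 to 2.92 ± 1.1 TPM (-2.43 ± 0.21, adjusted p = 3.84e-07) and Ccng1, cyclin G1, fell from 53.1 ± 5.5 to 11.6 ± 1.1 TPM (-2.10 ± 0.10, adjusted p = 1.64e-09). Mdm2, not on this list, fell at the same step, while Trp53 differed by -0.02 ± 0.11 (adjusted p = 0.894). From E4.5 to E5.5, where Trp53 rose, 5 targets rose and 8 fell, with a median of -0.17 against 0.16 over all genes, and 3 rose and 9 fell after rescaling. Of all genes, 38.9% rose and 22.8% fell between these stages before rescaling.

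From E6.5 to E7.5, 6 targets rose, with a median of 0.21 against 0.31 over all genes, but after rescaling 4 rose, 3 fell and the median was -0.12. Over all genes 46.5% rose and 6.87% fell, or 21.2% and 18.9% after rescaling. Cdkn1a rose from 3.12 to 9.08 TPM (1.30 ± 0.21, adjusted p = 1.87e-04) and Plk2, a polo-like kinase, from 2.76 to 7.06 TPM (1.10 ± 0.14, adjusted p = 3e-05). From E5.5 to E6.5 Ddb2, a DNA repair gene, fell (-0.52 ± 0.10, adjusted p = 0.00591), where 6.95% of all genes fell and 3.89% rose. Between E3.5 and E7.5, 13 targets fell and 3 rose, against 25% and 49.1% of all genes. The list median was -0.75 against 0.30 over all genes. Among those that fell, Perp, a p53 effector that is also a desmosome gene, went from 44.5 to 5.09 TPM (-2.90 ± 0.12, adjusted p = 5.19e-11). The summed trophectoderm list was lower at E7.5 than at E3.5 too, as given above, and its part in this result was not tested.

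In culture 15 of 22 tested targets were lower in ESC-derived 3D than in 2D EpiSCs and 1 was higher (Tigar), with a median of -0.73 against -0.21 over all genes, and 11 lower and 2 higher after rescaling. Over all genes 35.9% were lower and 9.56% higher, or 23.1% and 21.7% after rescaling. Trp53inp1, a stress-induced partner of p53, was at 29.5 ± 0.3 TPM in ESC-derived 3D EpiSCs, 70.0 ± 2.7 TPM in embryo-derived 3D EpiSCs, 99.0 ± 21 in EpiLCs and 140.1 ± 18 in 2D EpiSCs. Its difference from 2D EpiSCs was -2.20 ± 0.14 (adjusted p = 1.85e-06). Cdkn1a followed the order of Mdm2 among the EpiSCs, with 53.1 ± 13 TPM in ESC-derived 3D, 114 ± 5.1 in embryo-derived 3D and 139.7 ± 3.1 in 2D EpiSCs. Btg2, an antiproliferative gene, was at 29.2 ± 2.5, 36.0 ± 6.1 and 102 ± 5.8 TPM in the same groups.

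For embryo-derived 3D against 2D EpiSCs 9 targets were lower and 3 higher after rescaling. Before it 10 were lower and 1 higher, against 22.9% and 9.83% of all genes, with a median of -0.40 against -0.08 over all genes. The higher one was Sesn2, a stress-induced sestrin (173 against 76.7 TPM, 1.12 ± 0.19, adjusted p = 9.59e-04). Between the 3D cultures 11 targets were lower and 1 higher in the ESC-derived ones, against 14.6% and 6.55% of all genes. The list median was -0.43 against -0.12 over all genes, and 8 targets were lower and 3 higher after rescaling. Against EpiLCs 11 were lower and 3 higher in ESC-derived 3D EpiSCs, 6 lower and 4 higher in embryo-derived 3D EpiSCs, and 2 lower and 10 higher in 2D EpiSCs, and after rescaling these counts were 9 and 3, 8 and 3, and 4 and 8. The shares of all genes, before rescaling and in the same order, were 22.8% and 22.6%, 22.3% and 33.7%, and 18.7% and 39.9%. The plot of the listed p53 targets shows every tested member.

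**Figure D3:**
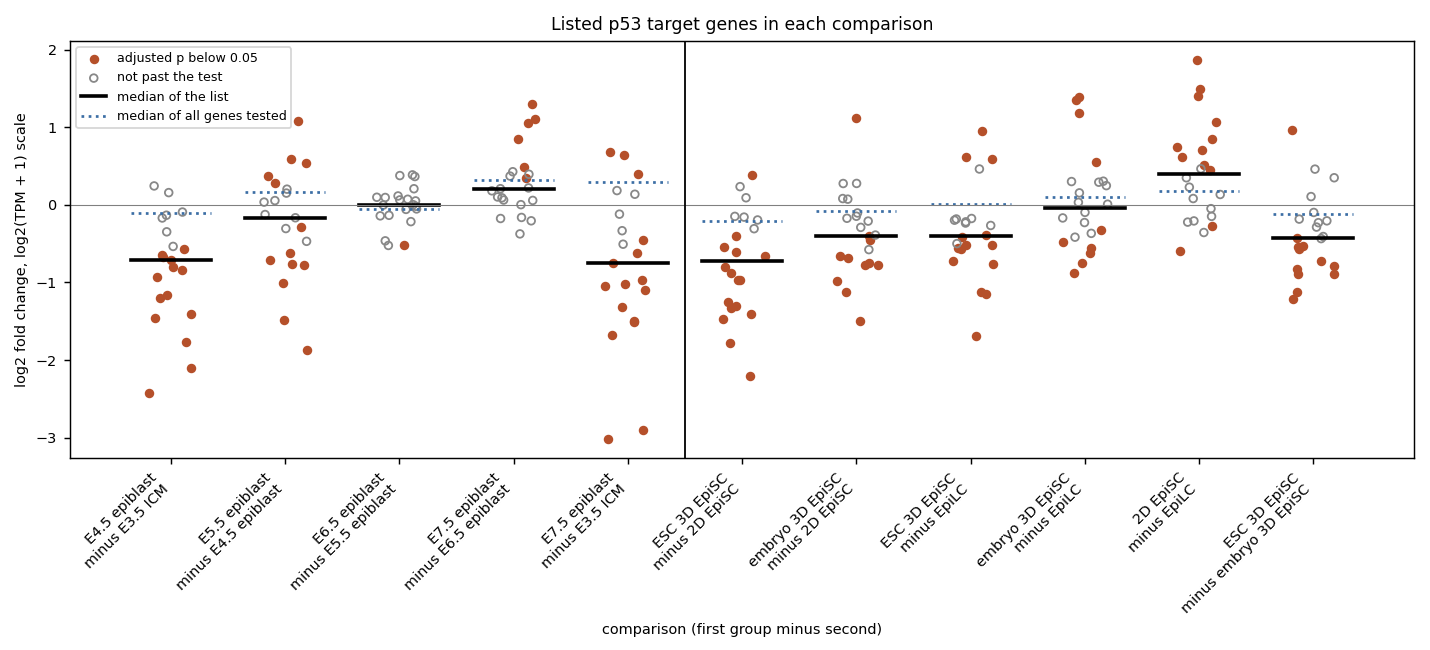
Difference in log2(TPM + 1) of each tested p53 target (points) in each comparison (first group minus second), filled where the adjusted p from limma was below 0.05. Black bars give the median of the list and dotted blue lines the median of all genes tested. The list median lies below that of all genes in every comparison other than 2D EpiSCs against EpiLCs and E6.5 against E5.5. It does so by most at E7.5 against E3.5 (-0.75 against 0.30). At E4.5 against E3.5 the medians are -0.71 and -0.10, and in ESC-derived 3D against 2D EpiSCs -0.73 and -0.21.

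Pmaip1 encodes NOXA, a BH3-only protein that binds mainly MCL1, and spans chr18:66458604-66465550 in mm10. In the embryo it was at 28.3, 22.7 and 27.7 TPM at E3.5, 18.5, 13.8 and 16.4 TPM at E4.5, 38.4, 42.4 and 43.0 TPM at E5.5, 40.0, 36.6 and 33.1 TPM at E6.5 and 10.6, 14.5 and 13.2 TPM at E7.5. The order was E7.5, E4.5, E3.5, E6.5 and E5.5, and E7.5 overlapped E4.5, and E6.5 overlapped E5.5, while the other neighbours in this order did not overlap. Pmaip1 fell by 0.66 ± 0.13 from E3.5 to E4.5 (adjusted p = 9.03e-04), rose by 1.30 ± 0.13 to E5.5 (adjusted p = 1.59e-06) and fell by 1.45 ± 0.13 from E6.5 to E7.5 (adjusted p = 1.48e-06). After rescaling these differences were -0.55, 1.15 and -1.77, and each passed in all 14 alternatives.

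In culture Pmaip1 was at 92.2, 70.1 and 102 TPM in EpiLCs, at 6.35, 6.52 and 1.76 TPM in ESC-derived 3D EpiSCs and at 4.06, 3.96 and 3.16 TPM in 2D EpiSCs. In embryo-derived 3D EpiSCs it was listed at 0 in 2 libraries and at 0.118 TPM in replicate 3. Every EpiLC library lay more than 10 times above every EpiSC library. Among the genes tested, the mean TPM of Pmaip1 stood at percentile 84.9 in EpiLCs, 21.2 in ESC-derived 3D EpiSCs, 11.3 in 2D EpiSCs and 1.24 in embryo-derived 3D EpiSCs.

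Against EpiLCs Pmaip1 was lower by -4.04 ± 0.31 in ESC-derived 3D EpiSCs (adjusted p = 1.21e-06), by -4.22 ± 0.31 in 2D EpiSCs (adjusted p = 5.87e-07) and by -6.41 ± 0.31 in embryo-derived 3D EpiSCs (adjusted p = 1.73e-08). Embryo-derived 3D EpiSCs were also lower than 2D EpiSCs (-2.18 ± 0.31, adjusted p = 3.08e-04) and than ESC-derived 3D EpiSCs, which were higher by 2.36 ± 0.31 (adjusted p = 4.82e-04). The sizes that involve embryo-derived 3D EpiSCs depend on the pseudocount and are no measure of fold: with 0.1 in place of 1 they were -9.39, -4.87 and 5.05. ESC-derived 3D and 2D EpiSCs differed by 0.18 ± 0.31 (95% interval -0.50 to 0.87, adjusted p = 0.655), and without ESC-derived replicate 3, the library that stood apart, by 0.66 (adjusted p = 0.00358).

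Lman1, a gene annotated near Pmaip1, was expressed in all groups. Its mean was 68.8 to 81.5 TPM in the embryo groups and 92.8 to 117 TPM in the cultures, and it was 117 TPM in embryo-derived 3D EpiSCs. The other protein-coding genes annotated within 500 kb were low in every group. Their highest group means were 1.43 TPM for Ccbe1 (E7.5), 0.174 TPM for Cplx4 (2D EpiSCs) and 0.0582 TPM for Mc4r (E5.5). These neighbours were looked up after the values of Pmaip1 were seen, and the state of the locus was not tested.

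Bcl2l11 encodes BIM, a BH3-only protein that binds all pro-survival members of the family. It was at 9.46 ± 1.4 TPM at E3.5, 16.2 ± 2.3 at E4.5, 33.5 ± 2.0 at E5.5, 21.4 ± 2.5 at E6.5 and 26.3 ± 1.5 at E7.5. The libraries of consecutive stages did not overlap at any step. It rose by 0.72 ± 0.12 to E4.5 (adjusted p = 2.39e-04) and by 1.01 ± 0.12 to E5.5 (adjusted p = 7.66e-06), and fell by 0.63 ± 0.12 to E6.5 (adjusted p = 0.00598). The last step, 0.29 ± 0.12, had an adjusted p of 0.0629, which was 0.0307 without E6.5 replicate 2, and the difference was -0.04 after rescaling. Over the whole course it rose by 1.39 ± 0.12 (adjusted p = 1.74e-07).

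In culture 2D EpiSCs had the most Bcl2l11, with 45.6, 43.6 and 43.2 TPM, above the 26.8 to 32.5 TPM of EpiLCs, the 23.7 to 30.6 TPM of ESC-derived 3D EpiSCs and the 19.3 to 22.3 TPM of embryo-derived 3D EpiSCs. The EpiLCs and ESC-derived 3D EpiSCs overlapped, and no other pair of groups did. ESC-derived 3D EpiSCs were lower than 2D EpiSCs by -0.72 ± 0.11 (adjusted p = 5.58e-04) and embryo-derived ones by -1.08 ± 0.11 (adjusted p = 3.33e-05). 2D EpiSCs were higher than EpiLCs by 0.58 ± 0.11 (adjusted p = 9.72e-04) and embryo-derived 3D EpiSCs lower than EpiLCs by -0.50 ± 0.11 (adjusted p = 0.00285). The difference between the 3D cultures, 0.36 ± 0.11 (adjusted p = 0.0445), was lost without any one of the ESC-derived libraries or without embryo-derived replicate 2 or 3 (adjusted p from 0.0557 to 0.146).

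Bbc3 encodes PUMA, a BH3-only protein and p53 target. It was low in the embryo, at 6.97, 8.96 and 8.63 TPM at E3.5, 7.52, 6.84 and 9.31 TPM at E4.5, 4.18, 6.69 and 5.65 TPM at E5.5, 8.16, 5.44 and 3.71 TPM at E6.5 and 2.71, 1.16 and 3.70 TPM at E7.5. The spread at E6.5 covered that of E5.5, and the E7.5 libraries lay below all others, though the closest pair was 3.70 and 3.71 TPM. Bbc3 fell by 1.45 ± 0.28 between E3.5 and E7.5 (adjusted p = 3.16e-04) and by 0.96 ± 0.28 between E6.5 and E7.5 (adjusted p = 0.0103). The latter was -0.72 without E6.5 replicate 1 (adjusted p = 0.0539) and -0.64 without E7.5 replicate 2 (adjusted p = 0.0514).

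In culture Bbc3 was at 25.2 ± 4.7 TPM in ESC-derived 3D EpiSCs, 34.3 ± 7.0 TPM in embryo-derived 3D EpiSCs, 38.7 ± 5.7 in 2D EpiSCs and 26.0 ± 4.3 in EpiLCs. ESC-derived 3D EpiSCs were lower than 2D EpiSCs by -0.60 ± 0.19 (adjusted p = 0.0208), which was -0.39 (adjusted p = 0.0802) after rescaling and was lost without ESC-derived replicate 1 or 2 or 2D EpiSC replicate 3 (adjusted p from 0.0707 to 0.0843). 2D EpiSCs were higher than EpiLCs by 0.56 ± 0.19 (adjusted p = 0.0222), which was lost after rescaling (adjusted p = 0.103) and without EpiLC replicate 3 or 2D EpiSC replicate 3 (adjusted p = 0.0916 and 0.089). Embryo-derived 3D EpiSCs differed from EpiLCs by 0.38 ± 0.19 (adjusted p = 0.103), and by 0.55 without embryo-derived replicate 1 (adjusted p = 0.0261). Between the 3D cultures the difference was -0.43 ± 0.19 (adjusted p = 0.119), and -0.57 and -0.60 without ESC-derived replicate 3 and without embryo-derived replicate 1 (adjusted p = 0.0353 and 0.0436).

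Within the summed TPM of these 3 BH3-only genes, a share that is free of library scaling, Pmaip1 made up 59.7% ± 3.7 (SD, n = 3) at E3.5, 40.2% ± 2.5 at E4.5, 51.3% ± 2.3 at E5.5, 57.4% ± 1.9 at E6.5 and 30.7% ± 4.1 at E7.5. Bcl2l11 went from 21.5% ± 1.5 at E3.5 to 63.3% ± 1.9 at E7.5, so that Pmaip1 led at E3.5, E5.5 and E6.5, both stood at 40.2% at E4.5, and Bcl2l11 led at E7.5. EpiLCs, with 61.1% ± 5.8 Pmaip1, were led by the same gene as the E3.5, E5.5 and E6.5 groups. EpiSCs were not, as Pmaip1 made up 8.97% ± 5.4 in ESC-derived 3D and 4.33% ± 0.77 in 2D EpiSCs, and at most 0.198% in any embryo-derived 3D library. Bbc3, which made up at most 23.5% in any embryo library, reached 62.2% ± 6.9 in embryo-derived 3D EpiSCs, where Bcl2l11 made up 37.7% ± 6.9, and 44.3% ± 4.0 and 44.5% ± 4.1 in ESC-derived 3D and 2D EpiSCs. A share does not remove effects of the kit on single genes, so embryo and culture shares are only set side by side. The plot of the composition of each class shows these shares.

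**Figure D4:**
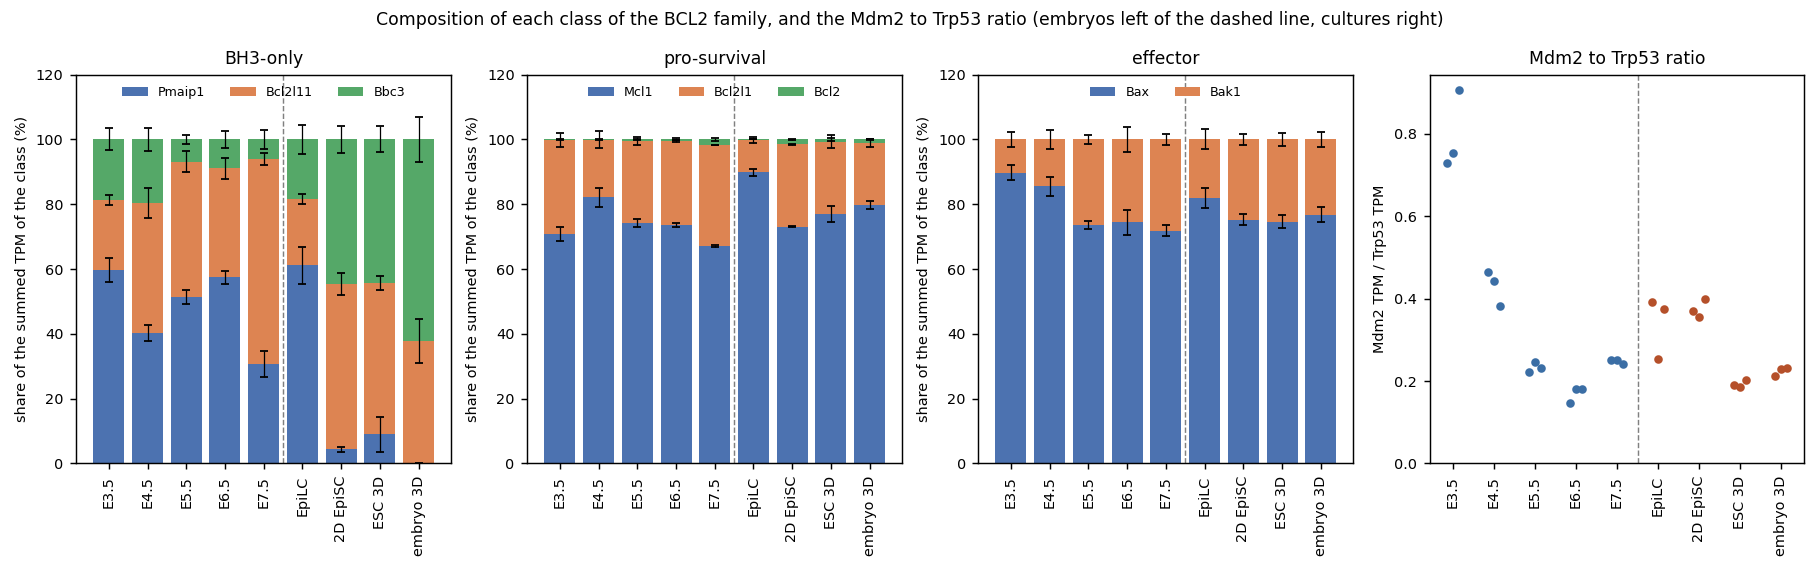
The first 3 panels give the share of each gene (%, stacked bars, mean of 3 libraries, with the SD of each share drawn at the top of its segment) in the summed TPM of its class, and the last panel gives the Mdm2 to Trp53 TPM ratio of each library. Embryo groups stand left of the dashed line and cultures right. Pmaip1 makes up 61.1% of the BH3-only sum in EpiLCs and at most 0.198% in any embryo-derived 3D library.

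Bax and Bak1 encode the effectors that permeabilise the mitochondrial membrane. Bak1 was at 6.90, 5.99 and 4.81 TPM at E3.5, 10.7, 14.8 and 13.5 TPM at E4.5, 29.6, 25.3 and 27.6 TPM at E5.5, 35.6, 29.9 and 23.1 TPM at E6.5 and 36.7, 32.5 and 32.0 TPM at E7.5. Stages did not overlap up to E5.5, and from then on consecutive stages did. Bak1 rose by 1.02 ± 0.16 to E4.5 (adjusted p = 1.08e-04) and by 1.03 ± 0.16 to E5.5 (adjusted p = 7.41e-05), and its rise from E3.5 to E7.5, 2.34 ± 0.16 (adjusted p = 1.12e-08), was the largest among the 9 genes tested in the embryo. After rescaling it was 2.06 (adjusted p = 5.88e-08).

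Bax was at 52.0 ± 3.9 TPM at E3.5, 77.5 ± 9.1 at E4.5, 76.6 ± 5.2 at E5.5, 85.4 ± 11 at E6.5 and 86.0 ± 2.9 at E7.5. It rose by 0.56 ± 0.11 from E3.5 to E4.5 (adjusted p = 6.58e-04) and by 0.72 ± 0.11 from E3.5 to E7.5 (adjusted p = 4.17e-05). From E6.5 to E7.5 the difference was 0.02, but -0.31 with an adjusted p of 0.0295 after rescaling. Within the effector sum the share of Bax was 89.7% ± 2.3 at E3.5, 85.5% ± 2.9 at E4.5, 73.6% ± 1.4 at E5.5, 74.4% ± 3.9 at E6.5 and 71.9% ± 1.6 at E7.5, so that Bak1 went from 10.3% to 28.1% of it.

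In culture Bax was highest in EpiLCs, with 313, 330.5 and 331 TPM, above every EpiSC library (190.3 to 243 TPM). EpiLCs were above ESC-derived 3D EpiSCs (-0.50 ± 0.09, adjusted p = 9.27e-04), embryo-derived 3D EpiSCs (-0.62 ± 0.09, adjusted p = 1.25e-04) and 2D EpiSCs (-0.46 ± 0.09, adjusted p = 9.66e-04), the differences being EpiSC minus EpiLC. Among the EpiSCs Bax differed by -0.04 (95% interval -0.23 to 0.16) between ESC-derived 3D and 2D and by -0.16 (-0.36 to 0.04) between embryo-derived 3D and 2D. Bak1 lay between 56.3 and 84.8 TPM in all culture libraries, and embryo-derived 3D EpiSCs (61.7 to 66.5 TPM) differed from 2D EpiSCs by -0.28 ± 0.13 (adjusted p = 0.132). That value had an adjusted p of 0.0335 when only these groups were fitted, and embryo-derived 3D EpiSCs were lower than EpiLCs by -0.31 without EpiLC replicate 3 (adjusted p = 0.0349). ESC-derived 3D and 2D EpiSCs differed in Bak1 by 0.01 (95% interval -0.28 to 0.31).

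Downstream of the effectors, 18 of 20 listed genes of the apoptosome, the caspases and their inhibitors were tested. From E4.5 to E5.5, 8 rose and 2 fell, and 8 and 3 after rescaling. Casp8, the initiator of the death receptor route, rose from 1.48 to 5.24 TPM (1.36 ± 0.16, adjusted p = 4.98e-06). From E3.5 to E4.5, 3 rose and 9 fell, among the latter the DNA-fragmenting nuclease gene Dffb (12 to 2.09 TPM). Counts were 1 down (Cflar) from E5.5 to E6.5, lost after rescaling, 10 up from E6.5 to E7.5, with 3 up after rescaling, and 8 up and 5 down from E3.5 to E7.5, with 4 up and 7 down after rescaling. Over all genes 46.5% rose from E6.5 to E7.5 and 49.1% rose and 25% fell from E3.5 to E7.5, so that these counts were near the background. From E4.5 to E5.5 and from E3.5 to E4.5 the list medians were 0.31 and -0.40, against 0.16 and -0.10 over all genes, of which 38.9% rose and 22.8% fell, and 21% rose and 33.8% fell.

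In culture Casp8 was at 18.4 TPM in 2D EpiSCs, 13.6 in embryo-derived 3D, 9.83 in ESC-derived 3D EpiSCs and 1.41 in EpiLCs, and was higher in 2D EpiSCs than in EpiLCs by 3.01 ± 0.18 (adjusted p = 9.9e-08). Apaf1, the core of the apoptosome, was at 46.9 TPM in 2D EpiSCs and lower in ESC-derived (17.1 TPM, -1.41 ± 0.14, adjusted p = 2.88e-05) and embryo-derived 3D EpiSCs (26.5 TPM, -0.80 ± 0.14, adjusted p = 0.00116). Counts of higher and lower genes were 3 and 4 for ESC-derived and 3 and 3 for embryo-derived 3D against 2D EpiSCs, 4 and 3, 4 and 2, and 6 and 2 for ESC-derived 3D, embryo-derived 3D and 2D EpiSCs against EpiLCs, and 1 and 3 for ESC-derived against embryo-derived 3D EpiSCs. After rescaling, the count for ESC-derived 3D against 2D EpiSCs was 6 and 3. The shares of all genes that passed against 2D EpiSCs were 9.56% up and 35.9% down for ESC-derived, and 9.83% up and 22.9% down for embryo-derived 3D EpiSCs. Against EpiLCs they were 22.6% and 22.8% for ESC-derived 3D, 33.7% and 22.3% for embryo-derived 3D and 39.9% and 18.7% for 2D EpiSCs. Between the 3D cultures they were 6.55% and 14.6%.

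Mcl1, a short-lived pro-survival protein, was at 95.3, 95.9 and 87.1 TPM at E3.5, 158, 142 and 136 TPM at E4.5, 78.0, 83.5 and 89.2 TPM at E5.5, 80.2, 81.1 and 73.8 TPM at E6.5 and 92.0, 85.9 and 90.3 TPM at E7.5. The E4.5 libraries stood above all other embryo libraries. Mcl1 rose by 0.64 ± 0.09 from E3.5 to E4.5 (adjusted p = 2.77e-05) and fell by 0.79 ± 0.09 to E5.5 (adjusted p = 2.53e-06), both also after rescaling (0.76 and -0.94). E7.5 and E3.5 differed by -0.05 ± 0.09 (adjusted p = 0.594), but by -0.34 after rescaling (adjusted p = 0.00145).

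In culture Mcl1 was at 261, 294 and 322 TPM in EpiLCs, at 164, 164 and 161 TPM in 2D EpiSCs, at 112, 126 and 124 TPM in embryo-derived 3D EpiSCs and at 124, 122 and 97.7 TPM in ESC-derived 3D EpiSCs. EpiLCs stood above 2D EpiSCs and these above both 3D cultures, which overlapped each other. ESC-derived and embryo-derived 3D EpiSCs were lower than EpiLCs by -1.35 ± 0.11 and -1.27 ± 0.11 (adjusted p = 2.47e-06 and 2.61e-06), and 2D EpiSCs by -0.83 ± 0.11 (adjusted p = 7.1e-05). The 3D cultures, in the same order, were lower than 2D EpiSCs by -0.51 ± 0.11 (adjusted p = 0.00407) and -0.43 ± 0.11 (adjusted p = 0.0126), calls that were lost after rescaling (-0.29 and -0.34, adjusted p = 0.104 and 0.0769).

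Bcl2l1 encodes BCL-XL, a pro-survival protein of the outer mitochondrial membrane. In the embryo it was at 37.3, 37.0 and 40.4 TPM at E3.5, 27.3 to 33.6 TPM at E4.5, 27.8 to 29.0 TPM at E5.5, 25.6 to 29.5 TPM at E6.5 and 42.6, 40.0 and 41.6 TPM at E7.5. The first and last stages were the highest, and the 3 stages between overlapped. The rise from E6.5 to E7.5 was 0.56 ± 0.09 (adjusted p = 2.11e-04), and 0.23 after rescaling (adjusted p = 0.0529). From E3.5 to E4.5 it fell by 0.28 ± 0.09 (adjusted p = 0.0183), which was lost after rescaling (-0.17, adjusted p = 0.13) and without E3.5 replicate 3 or E4.5 replicate 1 (adjusted p = 0.0706 and 0.0821). The step to E5.5 was -0.14 (adjusted p = 0.2), and -0.23 without E4.5 replicate 1 (adjusted p = 0.0289).

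In culture Bcl2l1 set 2D EpiSCs apart, with 57.3, 56.4 and 56.1 TPM against 27.7 to 35.0 TPM in all other culture libraries. It was lower in ESC-derived 3D EpiSCs by -0.77 ± 0.08 (adjusted p = 4.03e-05) and in embryo-derived 3D EpiSCs by -0.95 ± 0.08 (adjusted p = 6.16e-06), and higher in 2D EpiSCs than in EpiLCs by 0.77 ± 0.08 (adjusted p = 8.62e-06). After rescaling these were -0.55, -0.86 and 0.55 and all passed. ESC-derived 3D EpiSCs and EpiLCs differed by 0.00 (95% interval -0.17 to 0.18).

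Bcl2, the pro-survival gene that gave the family its name, was the least abundant of the 10 genes in the embryo. It was at 0.155, 0.0214 and 0.167 TPM at E3.5, listed at 0 in 2 libraries and at 0.381 TPM in replicate 3 at E4.5, and at 0.520 to 0.835 TPM at E5.5, 0.327 to 0.876 TPM at E6.5 and 1.95, 2.81 and 2.00 TPM at E7.5. The E7.5 libraries lay above all earlier ones. In the fit without a filter on low values Bcl2 rose by 0.56 from E4.5 to E5.5 (adjusted p = 0.0149) and by 1.11 from E6.5 to E7.5 (adjusted p = 2.26e-04).

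In culture Bcl2 was at 3.60, 4.02 and 2.98 TPM in 2D EpiSCs, 1.45, 1.99 and 1.85 TPM in embryo-derived 3D EpiSCs, 0.669, 0.764 and 1.69 TPM in ESC-derived 3D EpiSCs and 0.373, 0.230 and 0.270 TPM in EpiLCs. Only the 3D groups overlapped, through ESC-derived replicate 3. Only 2D EpiSC libraries were above 2 TPM, so Bcl2 passed the filter on low values through the group where it was highest. Its calls against 2D EpiSCs are therefore no independent support. Bcl2 was higher than in EpiLCs by 1.81 ± 0.17 in 2D (adjusted p = 3.8e-06), 1.10 ± 0.17 in embryo-derived 3D (adjusted p = 1.95e-04) and 0.63 ± 0.17 in ESC-derived 3D EpiSCs (adjusted p = 0.00984). It was lower than in 2D EpiSCs by -1.18 ± 0.17 in ESC-derived 3D (adjusted p = 3.08e-04) and -0.71 ± 0.17 in embryo-derived 3D EpiSCs (adjusted p = 0.00747). The 3D cultures differed by -0.47 ± 0.17 (adjusted p = 0.0688), and by -0.68 without ESC-derived replicate 3 (adjusted p = 0.0019).

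Within the pro-survival sum Mcl1 led in every group, from 67.2% ± 0.38 at E7.5 to 89.8% ± 0.97 in EpiLCs. Its share was 70.7% ± 2.2 at E3.5, 82.1% ± 2.8 at E4.5, 74.2% ± 1.3 at E5.5 and 73.5% ± 0.62 at E6.5, and 77.0% ± 2.4, 79.7% ± 1.2 and 73.0% ± 0.14 in ESC-derived 3D, embryo-derived 3D and 2D EpiSCs. Bcl2l1 made up 10.1% ± 0.95 in EpiLCs and 31.1% ± 0.073 at E7.5, and Bcl2 never more than 2.19%. EpiLCs thus combined the largest share of Mcl1 in the pro-survival sum with a leading share of Pmaip1 in the BH3-only sum. The pro-survival sum was 325 ± 30 TPM in EpiLCs, 223 ± 2.4 in 2D EpiSCs, 151 ± 8.0 in embryo-derived and 148 ± 15 in ESC-derived 3D EpiSCs, and the BH3-only sum was 143 ± 15, 86.5 ± 5.0, 54.7 ± 5.5 and 56.6 ± 5.5 TPM in the same order. In both sums EpiLCs stood above 2D EpiSCs and these above the 3D cultures, which overlapped each other. In the BH3-only sum the lead of EpiLCs over 2D EpiSCs came from Pmaip1, as Bbc3 and Bcl2l11 had lower means in EpiLCs. Unlike shares, such sums depend on the scaling of a library.

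In the embryo the BH3-only sum was highest at E5.5, 80.3 ± 2.7 TPM against 40.3 ± 3.8 at E4.5 and 41.6 ± 3.2 at E7.5, and the pro-survival sum was highest at E4.5, 177 ± 7.8 TPM against 113 ± 5.8 at E5.5. The effector sum went from 57.9 ± 2.9 TPM at E3.5 to 119.8 ± 4.0 at E7.5.

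Of 15 other BCL2 family genes, 9 were tested in culture and 8 in the embryo. Bid, a BH3-only gene that links the death receptor and mitochondrial routes, rose from 5.70 to 20.1 TPM between E4.5 and E5.5 (1.68 ± 0.17, adjusted p = 1.39e-06), and Bmf, another BH3-only gene, from 2.62 to 6.36 TPM (1.03 ± 0.14, adjusted p = 2.22e-05). Bcl2l14 had a mean of 10.9 TPM at E3.5 and 0.908 TPM at E4.5, where the libraries were at 0, 0.171 and 2.55 TPM. It passed the filter on low values through the E3.5 libraries, the group where it was highest, so only its levels are given. In culture Bcl2l14 was at 9.46 TPM in EpiLCs, through which it passed the filter, and at 0.8 TPM or less on average in the EpiSC groups. Bmf was at 21.5 TPM in 2D EpiSCs and lower in ESC-derived (9.44 TPM, -1.18 ± 0.22, adjusted p = 0.0016) and embryo-derived 3D EpiSCs (5.15 TPM, -1.87 ± 0.22, adjusted p = 7.56e-05), the order of the EpiSC groups seen for Bcl2l11.

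Counts of other family genes that rose and fell were 1 and 3, 4 and 1, and 5 and 1 from E3.5 to E4.5, E4.5 to E5.5 and E6.5 to E7.5, and 3 and 3 from E3.5 to E7.5, and Bcl2l12 fell from E5.5 to E6.5, a call lost after rescaling. Over all genes 21% and 33.8%, 38.9% and 22.8%, and 46.5% and 6.87% rose and fell at these 3 steps and 49.1% and 25% from E3.5 to E7.5, and with 8 genes tested several of the counts were near these shares. In culture 3 were lower in ESC-derived and 4 in embryo-derived 3D than in 2D EpiSCs, against 35.9% and 22.9% of all genes, though after rescaling 3 were higher and 2 lower, and 2 lower, respectively. Against EpiLCs, ESC-derived 3D EpiSCs had 2 higher and 3 lower, embryo-derived 3D EpiSCs 3 higher and 4 lower, and 2D EpiSCs 5 higher and 2 lower, the last pairs becoming 1 and 5, and 4 and 3, after rescaling. Before rescaling the shares of all genes were 22.6% and 22.8%, 33.7% and 22.3%, and 39.9% and 18.7% in the same order. Between the 3D cultures 4 of the other family genes were higher in the ESC-derived ones, against 6.55% of all genes, Bok (19.9 against 9.79 TPM) the most.

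Set beside the embryo with the change of kit in mind, the culture groups had more Trp53 than any embryo group by mean (307 to 384 against 66.2 to 153 TPM). Bbc3, Bax and Bak1 were also higher in every culture library than in every embryo library, as was Mdm2, by 55.2 against 54.7 TPM for the closest libraries, whereas Bcl2, Bcl2l1, Bcl2l11 and Mcl1 overlapped. Pmaip1 was the one gene with culture groups on both sides of all embryo groups. EpiLCs lay above the highest embryo library (43.0 TPM) and all EpiSCs below the lowest (10.6 TPM).

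Across the 15 embryo libraries, as a description in which libraries of a stage are not independent, Trp53 and Bak1 had a Pearson r of 0.916 on the log2 scale and Bcl2l11 and Bak1 0.881. The gene most like Trp53 was Rbm15b (r = 0.993) and the gene most like Bak1 was Sdc1 (r = 0.993). Those most like Pmaip1 were the pluripotency gene Pou5f1 (r = 0.941), Sycp3 (r = 0.936) and Lefty1 (r = 0.903). In culture, unlike Pmaip1, Pou5f1 was higher in ESC-derived and embryo-derived 3D EpiSCs (1874 and 1826 TPM) than in EpiLCs (1389 TPM). Across the 12 culture libraries, which fall into the 4 groups, Pmaip1 and Bax had an r of 0.955 and Bcl2l11 and Bcl2l1 0.902. Mcl1 was most like Arhgef3 (r = 0.982) and the naive marker Esrrb (r = 0.98). Esrrb and Zfp42 were highest in EpiLCs, but the naive markers Klf4 and Klf2 were highest in 3D EpiSCs, and Tfcp2l1 stayed low. Mdm2 was most like Mysm1 (r = 0.963), Smg5 (r = 0.96) and the listed p53 target Plk2 (r = 0.958).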

How the data were processed

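The authors deposited 1 table of expression in TPM, a length-corrected share of the transcripts of a library. Per the study's methods, reads were trimmed (cutadapt 2.4), aligned to mm10 with STAR and quantified with StringTie on GENCODE VM19. TPM rescales every library to the same total, so differences are relative to the library's other transcripts. The table held 54446 genes after 12 identifiers on several lines were summed. Empty cells, on 56 lines, were read as 0. Of 35 samples, 27 had a column, and 8 were not analysed here. Groups came from the labels.

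In vitro and in vivo libraries were fitted apart, because of their kits, on log2(TPM + 1) with limma 3.58.1 in R 4.3.3. The fit took autosomal protein-coding genes with TPM above 2 in at least 3 libraries. P-values were adjusted by the Benjamini-Hochberg method over all genes tested. The study used a count-based test, and limma replaced it because TPM are not counts. Depth is unknown, so no counting interval was given. Tests were checked on simulated data: 85 of 100 genes changed by 1 log2 unit were recovered for ESC-derived 3D against 2D EpiSCs, among 11541 genes.

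The members and the lists of p53 targets, p53 regulators, other BCL2 family, apoptosome and caspase genes and markers were chosen with earlier results of these data known. The report names all 10 members, and from each list up to 2 genes per direction with the largest change among those that passed. Some genes that this rule names are not reported here. Other genes given across groups are the same genes, followed after their values were seen. Alternatives were the pseudocount, the filter, all genes, rescaling by median-of-ratios factors or to protein-coding genes, only the compared groups, a replicate block, a trended variance, averaging near-identical libraries and leaving out each library.

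Likeness between genes is Pearson's r on log2(TPM + 1). Figures were drawn with matplotlib 3.10.9.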

Additional observations from a re-analysis of the deposited data

Results flagged for a closer look

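The 3D EpiSCs differed by origin, ESC-derived minus embryo-derived, in 4 of the 10 genes, 2 higher and 2 lower, against 6.55% and 14.6% of all genes. Pmaip1 differed by 2.36 on the log2(TPM + 1) scale (adjusted p = 4.82e-04), higher in all 3 ESC-derived libraries than in any embryo-derived one. Mdm2 differed by -0.53 (adjusted p = 0.0389), Trp53 by -0.33 (adjusted p = 0.0325) and Bcl2l11 by 0.36 (adjusted p = 0.0445). These 3 were each lost when 1 library was left out, as given for each gene above. The Trp53 and Mdm2 calls were also lost after median-of-ratios rescaling (adjusted p = 0.244 and 0.0981), which left 3 genes higher, Pmaip1, Bcl2l11 and Bcl2l1, and 0 lower. Rescaling to protein-coding genes lost Bcl2l11 (adjusted p = 0.0678). Origin and cell line cannot be told apart here.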

How the results depend on the processing

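Over single genes, 846 of 896 results outside the omission of libraries kept their direction and their side of the threshold, 37 lost and 11 gained a call and 2 turned. The 2 that turned were Trp53 (-0.33) and Bax (-0.31) for E7.5 against E6.5 under median-of-ratios rescaling, where 1 of the members was then higher and 4 lower. Counts of members that rose or fell moved most between the 3D cultures: 1 lower with no filter, 1 higher over all genes, 0 lower after median-of-ratios rescaling, 1 higher after rescaling to protein-coding genes, 0 higher and 1 lower with only the compared groups, and 1 higher and 0 lower with near-identical libraries averaged. For embryo-derived 3D against 2D EpiSCs 0 were higher with a pseudocount of 0.1, over all genes and with libraries averaged, which left 3 lower. With only the compared groups 0 were higher in either 3D culture than in EpiLCs. From E4.5 to E5.5, 2 fell under both rescalings.

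Leaving out 1 library gave 0 to 1 higher for ESC-derived and for embryo-derived 3D against 2D EpiSCs, 1 to 2 for embryo-derived 3D EpiSCs and 2 to 4 for 2D EpiSCs against EpiLCs, 1 to 2 higher and 0 to 3 lower between the 3D cultures, and 1 to 2 lower for E5.5 against E4.5 and for E7.5 against E6.5. Against 2D EpiSCs the 6 lower members became 4 to 6 for ESC-derived 3D EpiSCs. For embryo-derived 3D EpiSCs they became 4 to 5, so that the count of 6 was not reached without any 1 library. Lower members numbered 4 to 5 for embryo-derived 3D EpiSCs against EpiLCs and 2 to 3 for E4.5 against E3.5. For E7.5 against E6.5, 2 to 3 were higher. Same-numbered libraries did not deviate together (r from -0.146 to 0.16 over 18 pairs in vitro and from -0.115 to 0.0722 over 30 pairs in vivo), so the numbers gave no sign of pairing. Such correlations cannot show whether libraries share a culture, litter or batch, which the labels do not say. With the replicate block 0 members were higher for embryo-derived 3D against 2D EpiSCs, and 1 was higher and 1 lower between the 3D cultures. The cause of these changes was not tested. Depth is unknown, so the precision of values near 0 TPM, such as Bcl2 at E3.5 and E4.5 and Pmaip1 in embryo-derived 3D EpiSCs, could not be given.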
